A study of Mus musculus with 7 samples.

Results

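The genes described here are 52 genes of DNA replication and the G1/S transition, taken by symbol from a table of 33298 genes measured by RNA sequencing in sorted mouse hematopoietic stem cells (HSCs). All 52 symbols were found, and each was placed in 1 of 8 roles. Dek_cKO, with 3 libraries, came from mice homozygous for a floxed Dek allele (Dek fl/fl) that carried the Tie2-Cre transgene. Dek_fl, with 4 libraries, came from Dek fl/fl mice for which the labels name no Cre; the series text speaks of triplicates, and all 4 labelled libraries were used. Both groups were 12 weeks old and in homeostasis, and each library was made from about 800 cells sorted from bone marrow as Lin- Sca-1+ c-Kit+ CD48- CD150+, which the labels call quiescent. Tie2-Cre is active in endothelial and blood cells, so the deletion is not limited to HSCs. Cre is named only for the Dek_cKO mice, and its effect and that of the loss of Dek cannot be told apart. The labels do not state whether each library came from 1 animal, and p-values cover the library-to-library spread alone, which may be technical.

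Replication is prepared in G1, when the origin recognition complex, CDC6 and CDT1 load the MCM2 to MCM7 helicase onto DNA, a step called licensing. Cyclin E with CDK2, and the E2F transcription factors they release from repression, then start S phase. CDC45 and the GINS complex activate the helicase, and polymerases, the sliding clamp PCNA and its loader copy the strands with deoxynucleotides that ribonucleotide reductase supplies. Adult HSCs are mostly out of cycle, and many of these genes are known as E2F targets whose transcripts rise when cells enter the cycle. DEK, the deleted gene product, is a chromatin-binding protein.

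Depth differed between the libraries, since the totals recovered from the values were 4422647 to 12540431 reads in Dek_cKO and 4209153 to 26951516 reads in Dek_fl. Values are FPKM, which divide the fragments of a gene by its length and by the depth of the library, so levels can be compared between genes. The number of genes above 0 was 14291 to 17314 in Dek_cKO libraries and 8575 to 19950 in Dek_fl libraries, lowest in Dek_fl replicate 4. Dek itself had 9.60, 8.40 and 12.7 FPKM in Dek_cKO replicates 1 to 3, against 77.0, 118, 143 and 26.0 FPKM in Dek_fl replicates 1 to 4. The groups did not overlap, and the means of 10.2 ± 2.20 FPKM (SD, n = 3) and 91.0 ± 51.1 FPKM (SD, n = 4) gave p = 0.0571 in a two-sided exact permutation test, whose smallest possible p is 0.0286. The value of Dek_cKO replicate 3 has 5 decimals and equals 405.8 reads, not a whole number, while 10 times it gives 4058 reads. With that replacement the p of the exact test was 0.314. Of the HSC markers, Kit, Ly6a, Procr, Hlf and Meis1 were above 10 FPKM in all 7 libraries. Others were at or near 0 in some libraries: Mecom was at 0 to 9.18 FPKM in Dek_cKO and 0.0389 to 11.6 FPKM in Dek_fl, Tek at 0 to 8.28 FPKM in Dek_cKO and 0 to 2.69 FPKM in Dek_fl, and Fgd5 at 0.0654 to 9.76 FPKM in Dek_cKO and 0.0726 to 3.59 FPKM in Dek_fl. Slamf1, which encodes the sorted CD150, was at 0 to 1.80 FPKM in Dek_cKO and 0 to 1.70 FPKM in Dek_fl. Cd48, whose protein was gated out, had 7.82 to 135 FPKM in Dek_cKO and 4.10 to 206 FPKM in Dek_fl. Mki67, a gene of cycling cells, had 13.6 to 28.9 FPKM in Dek_cKO and 6.88 to 31.5 FPKM in Dek_fl, beside the label quiescent. The 10 mitotic markers, Mki67 among them, summed to 197 to 264 FPKM in Dek_cKO and 26.7 to 418 FPKM in Dek_fl. Dek_fl replicate 4 had the lowest sum, and 2 of the 10 markers were at 0 there and in Dek_cKO replicates 1 and 2. Neutrophil and monocyte markers summed to 560, 1239 and 11085 FPKM in Dek_cKO, against 1081, 2399, 810 and 976 FPKM in Dek_fl. Dek_cKO replicate 3 stood apart, with Elane at 5393 and Mpo at 1542 FPKM. All 7 tested neutrophil and monocyte markers had a log2 fold change above 0, with a median of 1.08 and 0 past the test. The marker lists of other cells gave mixed values. Cd3d, Ms4a1, Cdh5 and Ly6g, markers of T, B, endothelial and mature neutrophil cells, were at or near 0 throughout, but other genes of their lists were not. In the same lists, Nkg7 had 451 to 1345 FPKM in Dek_cKO and 34.9 to 576 FPKM in Dek_fl, with an unadjusted limma p of 0.0497. Ighm had 32.2 to 41.6 FPKM in Dek_cKO and 4.43 to 189 FPKM in Dek_fl, and Pecam1 had 9.94 to 29.0 FPKM in Dek_cKO and 1.43 to 13.3 FPKM in Dek_fl. Cd79b was the highest B cell marker in Dek_cKO replicates 1 and 3 (64.1 and 55.1 FPKM) and in Dek_fl replicate 1 (66.2 FPKM). Emcn was the highest endothelial marker in Dek_fl replicates 2 to 4, at 6.80, 15.1 and 16.8 FPKM. The erythroid markers summed to 38.4 to 155 FPKM in Dek_cKO and 101 to 186 FPKM in Dek_fl, and all 5 of the 8 that were tested had a log2 fold change below 0, with a median of -1.47 and 0 past the test. The part of other cells in the results below was not tested, and fewer cells of a type and less RNA per cell cannot be told apart in bulk RNA.

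E2F sites are the sequence feature for which G1/S genes are best known, so the promoters of these genes were searched for TTTCCCGC and TTTGGCGC on both strands, that is also for GCGGGAAA and GCGCCAAA. RefSeq promoters on the build GRCm38.p6, 250 bases before to 50 bases after each start, matched 43 of the 52 genes. At least 1 match was found in 14 of these 43 genes (32.6%), against 486 of 27025 genes with a promoter in the same table (1.80%). The matches fell in 5 of 8 helicase genes, 3 of 8 licensing genes, 3 of 5 G1/S regulators, 2 of 4 polymerase and primase genes, 1 of 5 clamp genes and 0 of the other 13. The windows below hold matches before the RefSeq start site and show the helicase genes first, then licensing, polymerase and kinase genes. They run 5′ to 3′ on the gene's strand, with the match in capitals.
Mcm5, chr8:75109349-75109378 (+): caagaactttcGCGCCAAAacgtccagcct
Mcm6, chr1:128359797-128359826 (-): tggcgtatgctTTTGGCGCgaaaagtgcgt
Mcm6, chr1:128359734-128359763 (-): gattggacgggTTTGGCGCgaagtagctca
Mcm7, chr5:138172030-138172059 (-): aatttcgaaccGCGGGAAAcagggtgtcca
Gins3, chr8:95633507-95633536 (+): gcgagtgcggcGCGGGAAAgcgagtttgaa
Cdc6, chr11:98908002-98908031 (+): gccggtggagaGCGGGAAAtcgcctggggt
Orc3, chr4:34614965-34614994 (-): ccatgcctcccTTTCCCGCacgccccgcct
Pola1, chrX:93632275-93632304 (-): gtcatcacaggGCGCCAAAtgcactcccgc
Cdk2, chr10:128705173-128705202 (-): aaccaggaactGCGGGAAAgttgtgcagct
No matches overlapped within a promoter of these genes. The matches start between -165 (Mcm7) and -41 (Orc3 and Gins3) relative to the RefSeq start in the windows shown, and Mcm6 holds matches at -110 and -47. A match in E2f3 at -11 also lies before the RefSeq start and is not shown. By the gene positions of GENCODE M21, the windows of Mcm7, Gins3 and Cdc6 lie inside the gene. Genes with and without a match overlapped in level: with a match, mean FPKM over the 7 libraries ran from 1.32 to 101 with a median of 25.1, and in the 29 genes with a promoter but no match it ran from 0.700 to 262 with a median of 32.8. A match is a run of letters and not a measured binding site.

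No gene of replication or G1/S passed the test between Dek_cKO and Dek_fl. Of the 52 genes, 49 reached 1 FPKM in at least 3 libraries and were tested by limma on log2(FPKM + 1), and E2f2, Ccne1 and Fen1 did not reach that level. The number called at an adjusted p under 0.05 was 0 of 49, as it was 0 of all 10260 genes tested (0.0%), with a lowest Benjamini-Hochberg adjusted p from limma of 0.9999 for both. limma with voom on the recovered reads also called 0, among all genes and among these. At an unadjusted p under 0.05, limma found 404 of the 10260 genes (3.94%), 218 higher (2.12%) and 186 lower (1.81%) in Dek_cKO, and voom found 529. Among the 49 genes, limma found Rrm2 higher and Rfc2 lower, 2 of 49, which is near the share over all genes. The groups did not overlap for 1 of the 49 genes, Rfc2, which was lower in Dek_cKO. Over all 10260 genes the groups did not overlap for 507 (4.94%), 293 higher (2.86%) and 214 lower (2.09%) in Dek_cKO. The log2 fold change was above 0 for 28 and below 0 for 21 of the 49 genes, with a median of 0.16. Over all genes 52.0% were above 0, with a median of 0.05. Without Dek_fl replicate 4 the median turned to -0.09 for these genes and to -0.11 over all genes tested. With every library in the fit, the median was 0.12 for the 13 tested genes with an E2F match in the promoter. It was 0.19 for the 27 with a promoter and no match.

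**Figure D1:**
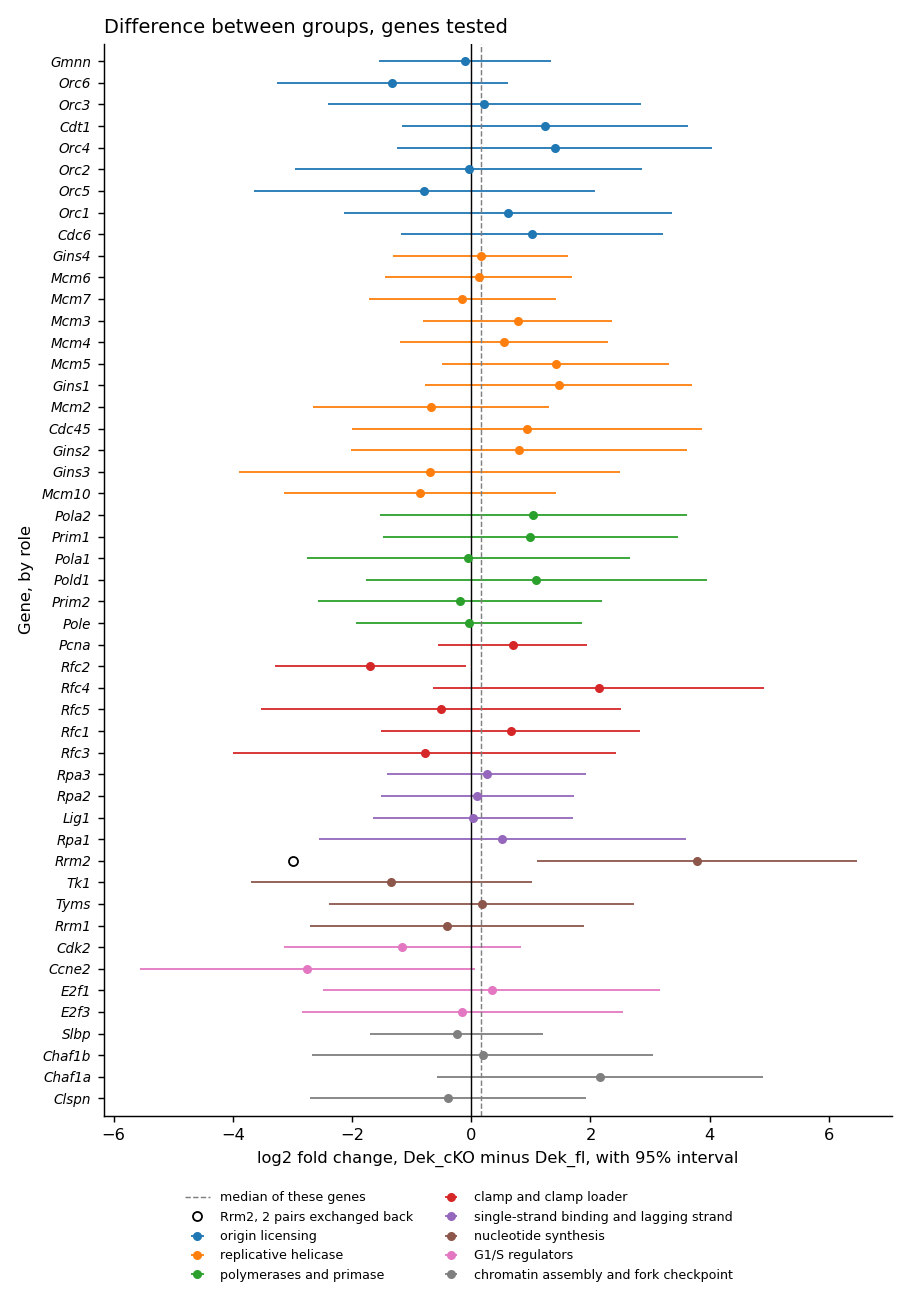
Log2 fold change of FPKM + 1, Dek_cKO minus Dek_fl (x axis), for the 49 tested genes (y axis, grouped and coloured by role). Points are limma estimates, bars 95% intervals, the dashed line the median of 0.16, and the open circle Rrm2 after 2 pairs of values were exchanged back (-3.00). All intervals but those of Rrm2 and Rfc2 include 0.

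These intervals rest on limma's moderated error, which draws the spread of each gene toward that of genes of like level and so can differ from its own spread. The standard error of the log2 fold change had a median of 1.14 over these genes and 1.25 over all genes tested. Within groups, the SD of log2(FPKM + 1) had a median of 1.46 over these genes and 1.51 over all. The 95% interval included 0 for 47 of the 49 genes. Lig1, for example, had a within-group SD of 0.44 and a standard error of 0.81, and Rrm2 an SD of 1.90 and a standard error of 1.29. An SD describes single libraries and a standard error the difference of group means, so they are not directly comparable.

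Among the licensing genes, 5 log2 fold changes were above and 4 below 0, with a median of 0.22, and none of the 9 passed the test or had groups that did not overlap. The most abundant was Gmnn (chr13:24751845-24761923), which encodes geminin, the inhibitor that binds CDT1 and prevents licensing a second time. Gmnn had 213, 94.9 and 57.5 FPKM in Dek_cKO replicates 1 to 3, against 163, 190, 78.4 and 66.5 FPKM in Dek_fl replicates 1 to 4. The groups overlapped over most of their range, and the log2 fold change was -0.10 (SE 0.69). Orc6 (chr8:85299632-85308278), a subunit of the origin recognition complex, had 105, 4.63 and 119 FPKM in Dek_cKO, against 94.6, 110, 97.3 and 111 FPKM in Dek_fl. All libraries but Dek_cKO replicate 2 lay close together, and the log2 fold change of -1.32 (SE 0.93) became 0.12 without that library. The licensing factor Cdt1 itself had 12.3 to 63.3 FPKM in Dek_cKO and 2.87 to 27.2 FPKM in Dek_fl. Gmnn was above Cdt1 in all 7 libraries, by 17.3, 1.499 and 1.15 times in Dek_cKO and by 7.86, 9.40, 2.88 and 23.2 times in Dek_fl. Cdc6, which recruits the helicase with CDT1, was low in both groups, at 0.455 to 11.1 FPKM in Dek_cKO and 0 to 2.67 FPKM in Dek_fl. Orc1, the large ATPase subunit of the complex, was at 0.279 to 23.3 FPKM in Dek_cKO and 0 to 18.0 FPKM in Dek_fl.

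**Figure D2:**
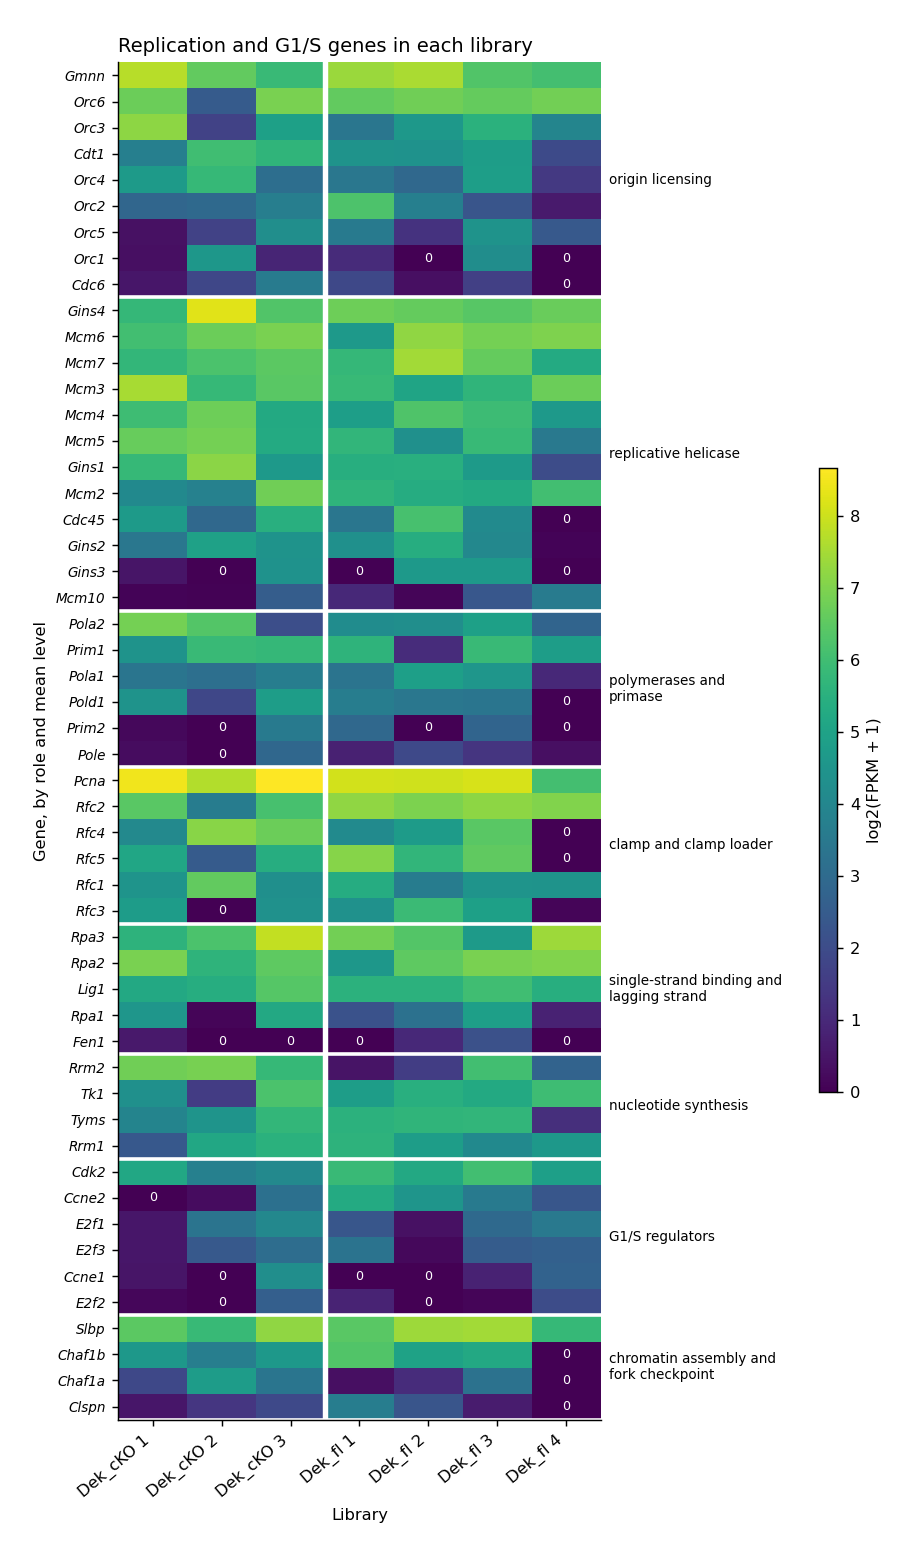
Level of each of the 52 genes (rows, by role and then by mean) in each library (columns, Dek_cKO left and Dek_fl right of the white line), coloured by log2(FPKM + 1); a 0 marks a value listed at 0. Abundant genes such as Pcna, Gmnn and Gins4 are bright in most columns, and the last column, Dek_fl replicate 4, holds 12 of the 28 zeros.

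The helicase genes had a median log2 fold change of 0.35, with 8 above and 4 below 0 among the 12, and again none passed the test. Gins4 (chr8:23226616-23237659), a subunit of the GINS complex that links CDC45 to the MCM ring, had 53.6, 306 and 78.1 FPKM in Dek_cKO, against 107, 97.7, 84.7 and 101 FPKM in Dek_fl. Its Dek_fl values lay within a narrow range that the Dek_cKO values enclosed, and the log2 fold change was 0.16 (SE 0.70). Mcm6 (chr1:128331590-128359664), a helicase subunit whose promoter holds 2 of the windows shown above, had 65.2, 105 and 119 FPKM in Dek_cKO, against 24.7, 149, 114 and 126 FPKM in Dek_fl. Its log2 fold change was 0.12 (SE 0.75), with Dek_fl replicate 1 lowest of all. The genes of the MCM2 to MCM7 ring, whose proteins assemble in equal number, had 4 log2 fold changes above and 2 below 0, with a median of 0.34. Their levels did not keep a common order. The highest of these genes was Mcm3, Mcm5 and Mcm6 in Dek_cKO replicates 1 to 3 and Mcm3, Mcm7, Mcm6 and Mcm6 in Dek_fl replicates 1 to 4. Within a library the highest exceeded the lowest by 11.1, 8.88 and 3.18 times in Dek_cKO and by 2.27, 9.05, 3.05 and 12.3 times in Dek_fl. Across the 7 libraries their pairwise correlations of log2(FPKM + 1) had a median Pearson's r of -0.03 over 15 pairs, against 0.149 over 1176 pairs of the 49 genes and 0.036 over all pairs of tested genes. These r values rest on 7 libraries of very different depth and are descriptions. Mcm10, which helps to start unwinding, had the lowest mean of the role, at 0.0465 to 4.85 FPKM in Dek_cKO and 0.0919 to 11.04 FPKM in Dek_fl.

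The polymerase and primase genes split evenly, with 3 of 6 log2 fold changes above 0 and a median of 0.48, and none passed the test. Pola2 (chr19:5940542-5964202), the accessory subunit of polymerase alpha, had 114, 81.2 and 3.22 FPKM in Dek_cKO, against 17.6, 18.3, 29.5 and 5.93 FPKM in Dek_fl. Dek_cKO held both the highest values and the lowest one, and the log2 fold change of 1.04 (SE 1.24) became 0.17 without Dek_cKO replicate 1 and 2.55 without Dek_cKO replicate 3. Prim1 (chr10:128015168-128030037), the catalytic primase subunit that lays down RNA primers, had 20.7, 57.0 and 53.7 FPKM in Dek_cKO, against 48.9, 1.16, 57.7 and 27.4 FPKM in Dek_fl. Only Dek_fl replicate 2 was near 0 for Prim1, and the log2 fold change was 0.99 (SE 1.18). The catalytic subunits were less abundant: Pola1 was at 7.95 to 11.8 FPKM in Dek_cKO and 0.993 to 28.9 FPKM in Dek_fl. Pole, the leading-strand polymerase, stayed at 0 to 6.39 FPKM in Dek_cKO and 0.278 to 2.75 FPKM in Dek_fl.

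Pcna (chr2:132249162-132253314), the sliding clamp that tethers polymerases to DNA, was the most abundant gene of all 52 on the mean over libraries. Pcna had 359, 201 and 405 FPKM in Dek_cKO, against 266, 259, 281 and 67.0 FPKM in Dek_fl. It ranked first among the 52 genes in 5 libraries, second to Gins4 in Dek_cKO replicate 2, and 8th in Dek_fl replicate 4. The means of 322 ± 107 FPKM (SD, n = 3) and 218 ± 101 FPKM (SD, n = 4) came from overlapping values, with a log2 fold change of 0.69 (95% interval -0.55 to 1.94) that became 0.20 without Dek_fl replicate 4.

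Rfc2 (chr5:134581366-134601805), a subunit of the clamp loader that opens PCNA onto DNA, was the one gene of the 52 with groups that did not overlap. It had 86.0, 11.4 and 70.1 FPKM in Dek_cKO, against 148, 124, 144 and 130 FPKM in Dek_fl, where the values lay within a narrow range. In recovered reads these were 2556, 251 and 4392 in Dek_cKO, against 3118, 9685, 19337 and 2932 in Dek_fl. The means were 55.8 ± 39.3 FPKM (SD, n = 3) and 136 ± 11.5 FPKM (SD, n = 4), and the log2 fold change was -1.69 (SE 0.77). limma gave an unadjusted p of 0.0397 and a Benjamini-Hochberg adjusted p of 0.9999 over all genes. Dek_cKO replicate 2 carried much of the size, since without it the log2 fold change was -0.80 with an unadjusted limma p of 0.258. The exons of Lat2 on the other strand overlap 19.1% of the longest Rfc2 transcript. How reads of overlapping genes were counted is not given in the sources used here. Such overlap is not particular to Rfc2, since it covers 70.7% of the longest transcript of Gins2 and 24.0% of that of Orc2. The other loader genes differed from Rfc2 and from each other: Rfc4 was at 15.9 to 137 FPKM in Dek_cKO and 0 to 85.8 FPKM in Dek_fl, with a log2 fold change of 2.14 (SE 1.33) that became 0.86 without Dek_fl replicate 4. Rfc5 was at 4.58 to 40.8 FPKM in Dek_cKO and 0 to 136 FPKM in Dek_fl, with a log2 fold change of -0.51 (SE 1.45). RFC2 to RFC5 act in 1 complex with RFC1, yet Rfc2 was the highest of the loader genes in 1 of 3 Dek_cKO libraries and in 4 of 4 Dek_fl libraries. Rfc4 was the highest in the other Dek_cKO libraries.

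**Figure D3:**
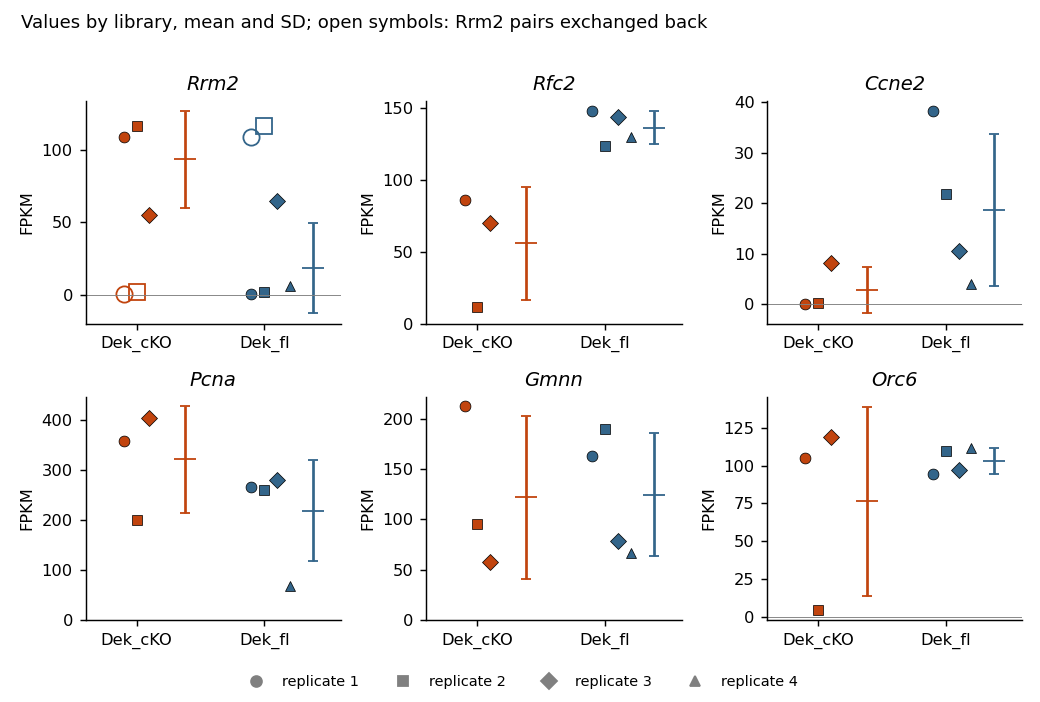
FPKM (y axis) of 6 genes in Dek_cKO (left, 3 libraries) and Dek_fl (right, 4 libraries), with the symbol showing the replicate number and the bar the mean and SD. Filled symbols are the deposited values and open symbols the exchanged values of Rrm2. Rfc2 shows no overlap, Orc6 has a single low library in Dek_cKO, and Rrm2 turns round when its pairs are exchanged back.

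The single-strand binding and lagging-strand genes varied least between the groups. All 4 tested log2 fold changes were above 0, between 0.02 and 0.52, each within 1 SE of 0. Rpa3 (chr6:8255936-8259173), the smallest subunit of the RPA complex that coats single-stranded DNA, had 47.8, 73.6 and 234 FPKM in Dek_cKO, against 112, 79.6, 25.2 and 165 FPKM in Dek_fl. The log2 fold change of Rpa3 was 0.26 (SE 0.80). Rpa2 (chr4:132768332-132778752), the subunit phosphorylated on replication stress, had 120, 48.9 and 90.9 FPKM in Dek_cKO, against 22.8, 91.0, 119 and 129 FPKM in Dek_fl. For both genes each group held high and low libraries, and the log2 fold change of Rpa2 was 0.10 (SE 0.78). Lig1, the ligase that joins Okazaki fragments, was chosen after its values were seen, as the gene with the smallest within-group SD of log2(FPKM + 1), 0.44. Lig1 had 36.5, 40.9 and 82.5 FPKM in Dek_cKO, against 46.8, 46.0, 63.8 and 42.0 FPKM in Dek_fl, so 6 of the 7 values lay between 36.5 and 63.8 FPKM. Its log2 fold change was 0.02 with a 95% interval of -1.66 to 1.70. Fen1, the flap nuclease that trims those fragments, was also chosen after its values were seen. It was at 0.496, 0 and 0 FPKM in Dek_cKO, against 0, 0.996, 3.41 and 0 FPKM in Dek_fl, which is far below its partners Pcna and Lig1. Exons of Gm10143 on the other strand overlap 83.9% of its longest transcript, so that the count of Fen1 is uncertain.

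Rrm2 (chr12:24708241-24714146), the small subunit of ribonucleotide reductase that is made in S phase, had the largest log2 fold change of the 49 genes and rested on values that were not whole reads. As deposited, it had 109, 117 and 55.1 FPKM in Dek_cKO, against 0.383, 1.96, 64.6 and 5.75 FPKM in Dek_fl. Dek_cKO values were high throughout, and Dek_fl replicate 3 overlapped them. limma gave a log2 fold change of 3.78 (SE 1.29), an unadjusted p of 0.0081 and a Benjamini-Hochberg adjusted p of 0.9999 over all genes. FPKM times transcript length and library total gave whole reads for all values of 6974 of 7016 genes assessed (99.4%). Genes not whole at the longest annotated transcript were tried at other lengths. At the annotated length, 91.5% to 92.3% of the values used to fit each library total were whole. Of the 52 genes described here, 43 had the reads to be assessed. All values were whole for 51 of the 52, 49 at the annotated length and 2 (Pola2 and Chaf1a) at another. Rrm2 was the exception. With their own totals its values equal 1418.025 and 1131.520 reads in Dek_cKO replicates 1 and 2, against 3.536 and 67.251 reads in Dek_fl replicates 1 and 2, whereas the 3 other libraries gave whole reads. Read with the total of the same-numbered library of the other group, the same values become 1003 and 4005 reads for those in the Dek_cKO columns, against 5 and 19 reads for those in the Dek_fl columns. With both pairs exchanged, Rrm2 would have 0.383, 1.96 and 55.1 FPKM in Dek_cKO, against 109, 117, 64.6 and 5.75 FPKM in Dek_fl, and the log2 fold change was -3.00 with an unadjusted limma p of 0.0429. Both its size and its sign thus depend on which column these 4 values belong to. Such exchanged pairs were found in 24 genes of the table, 51 pairs in all, and in each the Dek_cKO column holds the higher value. The sources used here do not give how this arose.

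The other nucleotide synthesis genes had no such values. Tk1 (chr11:117815526-117826092), thymidine kinase of the salvage route, had 19.6, 1.91 and 73.5 FPKM in Dek_cKO, against 27.5, 43.2, 37.1 and 62.2 FPKM in Dek_fl. Dek_cKO replicate 2 was lowest, and the log2 fold change of -1.34 (SE 1.13) became -0.0908 without it and -2.43 without Dek_cKO replicate 3. Tyms, which makes thymidylate, was at 13.9 to 52.0 FPKM in Dek_cKO and 1.25 to 50.6 FPKM in Dek_fl, with a log2 fold change of 0.17 (SE 1.23). Rrm1, the large reductase subunit, was at 4.24 to 45.8 FPKM in Dek_cKO and 16.4 to 47.3 FPKM in Dek_fl, with a log2 fold change of -0.41 (SE 1.10). Since RRM1 and RRM2 form 1 enzyme, their ratio was also computed. Rrm2 over Rrm1 was 25.7, 3.25 and 1.20 in Dek_cKO, against 0.00809, 0.0716, 3.94 and 0.242 in Dek_fl as deposited. With the pairs exchanged the ratio was 0.0904, 0.0546 and 1.20 in Dek_cKO, against 2.30, 4.26, 3.94 and 0.242 in Dek_fl. The median log2 fold change of the role was -0.12 as deposited and -0.88 with the pairs exchanged.

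The G1/S regulators had a median of -0.65, the lowest of the roles as deposited and above nucleotide synthesis with the Rrm2 pairs exchanged, with 1 of 4 tested log2 fold changes above 0 and none past the test. Cdk2 (chr10:128697939-128705031), the kinase that drives S phase entry, had 35.8, 12.7 and 15.8 FPKM in Dek_cKO, against 57.6, 36.3, 64.1 and 28.7 FPKM in Dek_fl. Only Dek_cKO replicate 1 reached the Dek_fl range, and limma gave a log2 fold change of -1.16 (SE 0.95) and an unadjusted p of 0.238. Ccne2 (chr4:11191351-11204779), the cyclin E2 partner of CDK2, had 0, 0.226 and 8.09 FPKM in Dek_cKO, against 38.3, 21.9, 10.5 and 3.97 FPKM in Dek_fl. In reads this was 0, 3 and 305 in Dek_cKO, against 484, 1029, 850 and 54 in Dek_fl. The log2 fold change was -2.75 (SE 1.35, 95% interval -5.56 to 0.06) with an unadjusted limma p of 0.0545, and the groups overlapped through Dek_cKO replicate 3 and Dek_fl replicate 4. Exons on the other strand, chiefly of Ints8, overlap 20.3% of the longest Ccne2 transcript, so that the count of Ccne2 is uncertain. Ccne1, the other cyclin E gene, was listed at 0 in 3 libraries and ran from 0 to 18.5 FPKM in Dek_cKO and from 0 to 5.64 FPKM in Dek_fl. The activating factors were low: E2f1 was at 0.427 to 15.5 FPKM in Dek_cKO and 0.301 to 10.4 FPKM in Dek_fl. E2f3 was at 0.429 to 7.65 FPKM in Dek_cKO and 0.138 to 8.90 FPKM in Dek_fl, and E2f2 was not tested.

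Of the chromatin assembly and checkpoint genes, 2 of 4 log2 fold changes were above 0, with a median of -0.03, and none passed the test. Slbp (chr5:33634952-33652574), which binds the stem-loop of histone mRNAs, had 89.4, 55.6 and 150 FPKM in Dek_cKO, against 85.5, 166, 175 and 54.3 FPKM in Dek_fl. Both groups spanned the same range, and the log2 fold change was -0.25 (SE 0.70). Chaf1b (chr16:93883901-93906115), a subunit of the factor that deposits histones behind the fork, had 23.8, 12.2 and 23.8 FPKM in Dek_cKO, against 79.3, 30.8, 36.1 and 0 FPKM in Dek_fl. All Dek_fl libraries but replicate 4 were above Dek_cKO, and the log2 fold change was 0.19 (SE 1.37). Chaf1a, the large subunit of the same factor, was at 2.64 to 26.9 FPKM in Dek_cKO and 0 to 8.55 FPKM in Dek_fl, with a log2 fold change of 2.16 (SE 1.31). The deposited Chaf1a values are whole reads at a length of 3308 bases and not at that of the longest annotated transcript, 7698 bases. Clspn, a mediator of the fork checkpoint, stayed at 0.435 to 2.78 FPKM in Dek_cKO and 0 to 11.7 FPKM in Dek_fl.

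**Figure D4:**
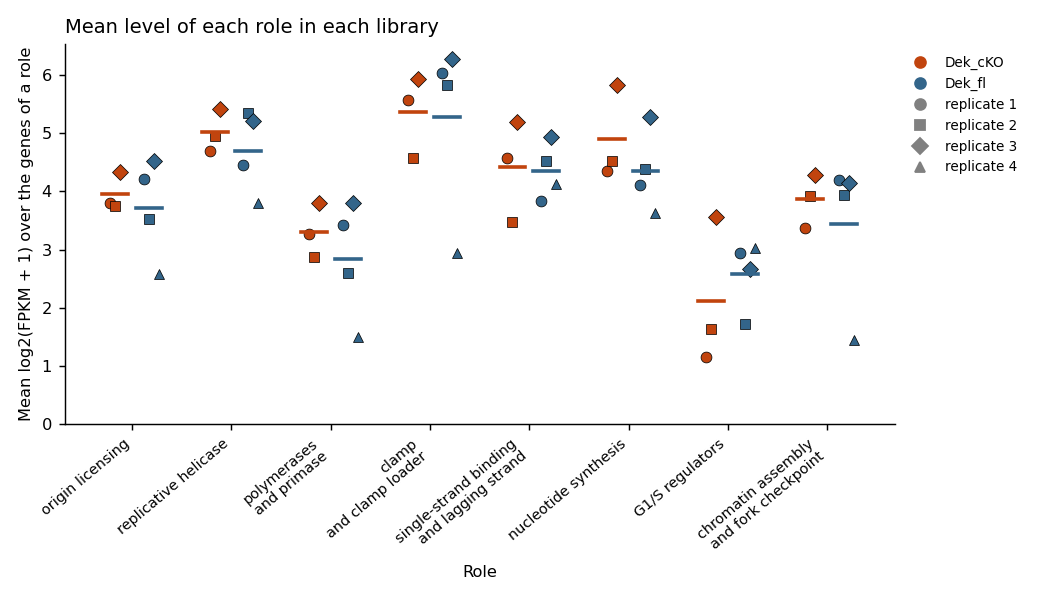
Mean log2(FPKM + 1) over the genes of each role (y axis) in each library; symbols show replicate numbers, Dek_cKO left of Dek_fl, and short lines are group means. The 2 groups overlap in all 8 roles, and as deposited Dek_fl replicate 4 is the lowest library in 6 of them (in 5 with the Rrm2 pairs exchanged).

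Levels taken over all 52 genes also differed between single libraries of the same group. The summed FPKM of the 52 genes was 2363, 2265 and 2675 in Dek_cKO, against 2145, 2331, 2403 and 1480 in Dek_fl. The sums were thus alike but for Dek_fl replicate 4. The mean of log2(FPKM + 1) over the 52 genes was 3.93, 3.83 and 4.81 in Dek_cKO, against 4.20, 4.09, 4.66 and 2.97 in Dek_fl. The highest of these means belonged to the deepest library of each group. Of the 364 values, 28 were listed at 0, and they came from 1, 7 and 1 of the 52 genes in Dek_cKO, against 3, 4, 0 and 12 in Dek_fl. Among the 10260 tested genes, 10.3%, 12.7% and 4.68% were at 0 in Dek_cKO, against 7.38%, 6.36%, 3.50% and 28.9% in Dek_fl. In Dek_fl replicate 4 the genes at 0 included Cdc45, Pold1, Rfc4, Rfc5 and Chaf1b, which had 2.59 FPKM or more in each of the other 6 libraries.

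**Figure D5:**
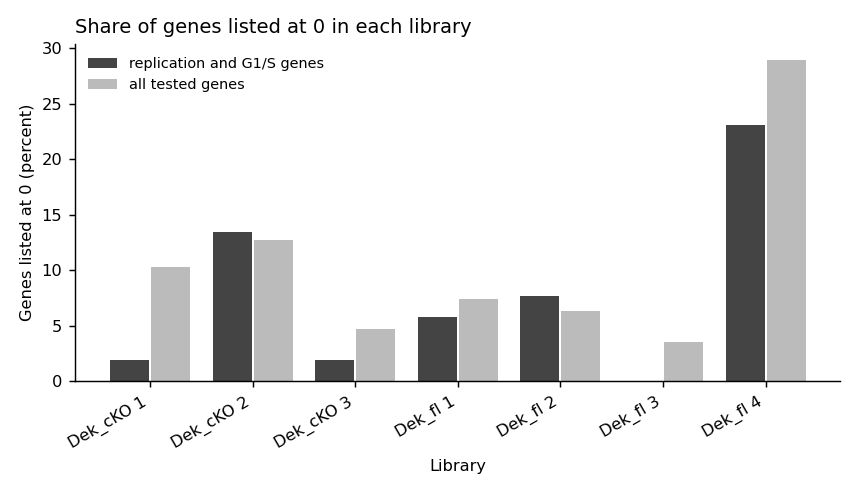
Percent of the 52 genes (dark bars) and of the 10260 tested genes (light bars) listed at 0 in each library, Dek_cKO left and Dek_fl right. Dek_fl replicate 4 is highest for both, with 12 of the 52 genes and 28.9% of the tested genes at 0.

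A further 53 genes of the pathway that are not among the 52, such as the kinase genes Cdc7 and Dbf4, the repressors Rb1 and Rbl1 and the accessory polymerase subunits, were read from the same fit. Of these, 51 were tested and 0 were called, 0 had an unadjusted p under 0.05, and 29 had a log2 fold change above 0 and 22 below, with a median of 0.18. Samhd1 was the only gene of the list with groups that did not overlap, 1 of the 51 tested. Over all 10260 genes tested the groups did not overlap for 4.94%, and limma gave an unadjusted p under 0.05 for 3.94%. SAMHD1 breaks down deoxynucleotide triphosphates, opposite in effect to ribonucleotide reductase. Samhd1 had 21.5, 39.5 and 40.4 FPKM in Dek_cKO, against 12.6, 5.58, 18.0 and 12.7 FPKM in Dek_fl. For Samhd1 limma gave a log2 fold change of 1.44 (SE 1.10) and an unadjusted p of 0.205. The standard error is limma's moderated one for the difference of group means. The within-group SD of Samhd1 itself, a spread of single libraries, was 0.59 on the log2(FPKM + 1) scale.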

How the data were processed

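The authors deposited FPKM for each gene and library in 1 table. The submitters' processing notes name Bowtie (version 0.12.9), Cufflinks (version 2.1.1), HTSeq and the build mm10, without the role of each; the annotation is not given in the sources used here. Groups came from the sample titles, and the 7 columns were matched by name. The genes, roles, other lists and the rule for named genes (the 2 most abundant of each role, and those with an unadjusted p under 0.05, no overlap or values that are not whole) were chosen with earlier results of these data known. Some marker genes are not reported here.

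The test was limma (version 3.58.1, R 4.3.3) with trend and robust moderation on log2(FPKM + 1), two-sided, for genes at 1 FPKM or more in 3 libraries, with Benjamini-Hochberg adjustment over 10260 genes. A pseudocount of 1 makes the fold changes of low genes too small. Reads were computed from FPKM, the length of the longest GENCODE M21 transcript and a fitted library total, and called whole within 0.003 reads plus rounding. A gene not whole at that length was tried at a range of other lengths, and the first that made all its values whole was taken. Genes with 30 reads or more in 5 libraries were assessed. An exact 0 may be a failed estimate in these low-input libraries. The limma step was checked on simulated data. Alternatives were pseudocount 0.1, no filter, median-of-ratios scaling, no trend or robust moderation, a replicate block, leaving out each library, exchanging the pairs back, leaving out genes that are not whole, and voom on the reads. Gene positions are those of GENCODE M21 (GRCm38). Python 3.11.15 was used with numpy 2.4.6 for arrays, pandas 2.3.3 for tables, scipy 1.17.1 for permutation tests and matplotlib 3.10.9 for plots.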

Additional observations from a re-analysis of the deposited data

Results flagged for a closer look

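In 5 of the 52 genes, 1 Dek_fl library lay far from the other 3 on the log2(FPKM + 1) scale. The measure was the gap to its nearest neighbour divided by the range of the 4 libraries, and each exceeded Dixon's 95% critical value for 4 samples. Ratios of plain FPKM would differ. The lowest library was Dek_fl replicate 4 for Cdt1 (0.855), Pold1 (0.916), Pcna (0.945) and Tyms (0.976), and Dek_fl replicate 1 for Mcm6 (0.851). The mean log2(FPKM + 1) of the clamp and clamp loader genes (0.865) and of the chromatin assembly and fork checkpoint genes (0.907) was likewise lowest in Dek_fl replicate 4. Chance sets about 1 in 20 such groups apart, and 61 were examined. Groups of 3, such as Dek_cKO, were not examined.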

How the results depend on the processing

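No gene of the 52, nor any other gene, passed an adjusted p under 0.05 under the 15 alternatives. The median log2 fold change of these genes was 0.03 to 0.18 under those with all libraries other than the replicate block, and -0.09 to 0.44 without 1 library. Over all genes tested, the median without 1 library was -0.11 to 0.14. With the replicate block the median was -0.13 for these genes and -0.11 over all genes tested. That fit draws no fold change from Dek_fl replicate 4, which has no Dek_cKO library of its number. Same-numbered libraries did not deviate together (r of -0.03, -0.073 and 0.045 for the 3 pairs), and pairs of unlike number ran from -0.083 to 0.072. Such r values, from so few libraries, cannot exclude a shared batch. The replicate block called 0 genes, with 509 at an unadjusted limma p under 0.05. The difference in Dek FPKM was -102.4 to -63.4 without 1 library, and -42.8 with the 5-decimal value multiplied by 10.

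The sign of the log2 fold change turned under at least 1 alternative for 33 of the 49 tested genes and under none for 16; apart from the exchanged values of Rrm2 (-3.00), the cause was not tested. With a pseudocount of 0.1 it turned for Orc2 (0.21), Pola1 (0.10), Rfc5 (0.23) and Clspn (0.034). With the replicate block it turned for Cdc45 (-0.20), Gins2 (-0.32), Rpa1 (-0.13), Lig1 (-0.0499), Tyms (-0.95), E2f3 (0.0116) and Chaf1b (-1.18). These block estimates equal those without Dek_fl replicate 4 and are not a separate result. With voom it turned for Orc2 (0.57), Orc3 (-0.11), Mcm2 (0.0321), Mcm4 (-0.041), Mcm6 (-0.13), Gins4 (-1.5e-04) and Pola2 (-0.44). It also turned with voom for Rpa1 (-0.41), Rpa2 (-0.14), Rrm1 (0.0364), Tyms (-0.19), E2f3 (0.44) and Clspn (0.57). Leaving out 1 library turned 29 genes, with these ranges. Licensing genes ran from -0.91 to 0.96 for Orc2, -1.07 to 1.67 for Orc3, -1.87 to 0.0779 for Orc5, -2.09 to 0.12 for Orc6 and -0.60 to 0.33 for Gmnn. Helicase genes ran from -0.46 to 0.39 for Mcm6, -0.48 to 0.24 for Mcm7, -0.20 to 1.84 for Cdc45, -0.32 to 1.45 for Gins2, -1.48 to 0.12 for Gins3 and -0.58 to 0.66 for Gins4. Polymerase and primase genes ran from -0.87 to 0.44 for Pola1, -0.0902 to 1.497 for Prim1, -0.66 to 0.43 for Prim2 and -0.29 to 0.49 for Pole. Clamp genes ran from -0.0681 to 1.06 for Rfc1, -2.02 to 0.74 for Rfc3 and -2.12 to 0.42 for Rfc5. Single-strand binding and lagging-strand genes ran from -0.44 to 2.11 for Rpa1, -0.46 to 0.46 for Rpa2, -0.40 to 0.74 for Rpa3 and -0.33 to 0.24 for Lig1. The others ran from -0.996 to 0.58 for Rrm1, -0.95 to 0.57 for Tyms, -0.37 to 1.40 for E2f1 and -0.81 to 0.60 for E2f3. Chromatin and checkpoint genes ran from -1.18 to 0.92 for Chaf1b, -0.61 to 0.10 for Slbp and -0.94 to 0.28 for Clspn. Where 1 Dek_fl or Dek_cKO library was left out, the fit still held at least 2 libraries a group.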
